A study of Mus musculus with 36 samples.

Results

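Fatty acid synthesis from carbohydrate in the liver was followed here through 10 genes: Srebf1, which encodes the transcription factor SREBP-1, and 9 genes of glycolysis and de novo lipogenesis, namely Pklr, Acly, Me1, Acaca, Acacb, Fasn, Elovl6, Scd1 and Thrsp. Their probes were those that carry 1 of these names in the scanner files, 22 probes of 56605 on the array. Of these, 21 passed the filter on dim probes; the other, 1 of the Acaca probes, was well above background on 2 arrays only. All 10 genes were among the 23054 genes tested and were well above background on all 36 arrays.

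The series measured RNA in whole liver of male C57BL/6J mice aged 11 weeks that lacked the insulin receptor gene Insr in hepatocytes, or kept it. In the knockout mice, named IRLKO in the labels, the fourth exon of Insr is flanked by LoxP sites and Cre is made in liver from the transthyretin promoter in a tamoxifen-inducible form (TTR-CreTam); the control mice are named IRLWT. All mice had free access to a standard rodent diet and received no treatment per the labels, and livers were taken at Zeitgeber time (ZT) 8, 12 or 16, in hours after lights on, with lights off at ZT12. Each of the 6 groups of genotype and time held 6 samples, 1 array each. The labels give neither the time of tamoxifen nor whether controls carried the Cre transgene, and they number the samples as replicates without stating that each came from a separate mouse, so p-values measure the spread between these samples.

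In the fed liver, insulin raises transcription of Srebf1 and the release of its membrane-bound product from the endoplasmic reticulum, while glucose acts on some of the same genes through ChREBP, the product of Mlxipl. Citrate leaving the mitochondria is split to acetyl-CoA by Acly, carboxylated to malonyl-CoA by Acaca and Acacb, and built into palmitate by Fasn with NADPH that comes partly from Me1. Elovl6 then lengthens palmitate and Scd1 introduces a double bond.

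Levels are given as log2 intensity of a gene's brightest probe minus the array's 75th percentile, so that 0 marks that percentile. A ratio is knockout over control on the log2 scale from a limma fit over all genes with wash batch as a term, its standard error (SE) comes from that fit, and its adjusted p is by Benjamini-Hochberg over all 23054 genes, with 0.05 as the threshold for a call. Levels of different genes come from different probes and are not set against each other. The 75th percentile signal was 311 to 446 intensity units in control arrays and 331 to 525 in knockout arrays, and no spot was saturated.

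Insr itself was measured first, as a check of the labels. Its level in controls was -1.81 to -1.01 at ZT8, -1.86 to -1.44 at ZT12 and -1.85 to -1.24 at ZT16. In knockouts it was -3.54 to -2.94 at ZT8, -3.95 to -3.29 at ZT12 and -3.75 to -3.08 at ZT16, so no knockout array reached a control array. The knockout level was 29.3%, 27.2% and 31.8% of control at ZT8, ZT12 and ZT16 (limma, adjusted p 1.2e-11, 2.2e-12 and 2.9e-11). Whether this probe reads the deleted exon was not determined here.

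Markers of the cell types in liver were read on the same arrays. Over all genes, 18.7%, 22.6% and 20.00% were called lower in knockouts at ZT8, ZT12 and ZT16, and 16.7%, 19.6% and 19.9% higher. Of 7 hepatocyte markers, all well above background on every array, 2 were called lower in knockouts at each time, among them Ttr (ratios -1.12, -1.02 and -0.97), whose promoter drives the Cre, and 0, 2 and 0 were called higher. Their summed level, in multiples of the array's 75th percentile, ranged from 3141 to 3833 in control and from 2390.3 to 3456 in knockout arrays at ZT8, from 3573 to 3939 and from 2680.6 to 3423 at ZT12, and from 3608 to 4274 and from 2953 to 3193 at ZT16. A summed level is weighted to the brightest markers of a list. The median ratios of the 7 markers were -0.06, 0.13 and -0.19. Of 6 Kupffer cell and macrophage markers, 2, 5 and 2 were called higher in knockouts at ZT8, ZT12 and ZT16. Their median ratios were 0.67, 0.86 and 0.74. Their summed level was 44.8 to 111 in control and 64.3 to 280 in knockout arrays at ZT8, 36.2 to 116 and 83.6 to 239 at ZT12, and 43.7 to 156 and 94.1 to 317 at ZT16. The summed level of 8 adipocyte markers, a cell type that also makes fatty acids, was 4.86 to 6.66 in control and 5.47 to 7.52 in knockout arrays at ZT8, 3.73 to 4.50 and 5.23 to 7.36 at ZT12, and 3.68 to 4.42 and 5.77 to 12.5 at ZT16; 1, 2 and 1 of them were called lower and 0, 1 and 2 higher, and 3 to 5 were well above background on all arrays of a group. The median ratios of the adipocyte markers were 0.005, 0.04 and 0.06. Of the 5 endothelial markers 0, 4 and 3 were called higher, of the 6 stellate cell and fibroblast markers 0, 2 and 2, of the 5 bile duct markers 0, 0 and 1, and of the 4 red cell markers 0, 2 and 2. Among these 4 lists, those called lower were 1 bile duct marker at ZT12 and 1 red cell marker at each time. The part of these cells in the results was not tested, and in bulk liver fewer cells of a type and less RNA per cell cannot be told apart. Replicate 3 of the ZT8 knockouts had the lowest level of its group in 7 of the 10 genes, and results that turn on it are given with and without it.

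Most of the 10 genes were lower in liver without the insulin receptor. At ZT8, 7 of the 10 genes were called lower, against 18.7% of all genes tested. At ZT12 all 10 were called lower, against 22.6% of all genes, and at ZT16 9 were, against 20.00%. None was called higher at any time, by a test that called 16.7%, 19.6% and 19.9% of all genes higher. In time order, the median ratios of the 10 genes were -1.19, -1.62 and -1.35, beside 0.01, -0.02 and 0.00 for all genes. A fall of 2-fold or more was called for 5, 8 and 8 genes, against 2.67%, 3.61% and 3.11% of all genes. With replicate 3 of the ZT8 knockouts left out, 6 genes were called lower at ZT8, with Me1 lost, and Elovl6 was called higher. With all arrays, Srebf1, Thrsp, Pklr, Acly, Me1, Fasn and Scd1 were called lower at all 3 times, which held for 10.6% of all genes. The 6 knockout arrays lay wholly below the 6 control arrays for 4 genes at ZT8 and 8 at each later time, where 9.38%, 12.96% and 10.02% of all genes did.

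**Figure D1:**
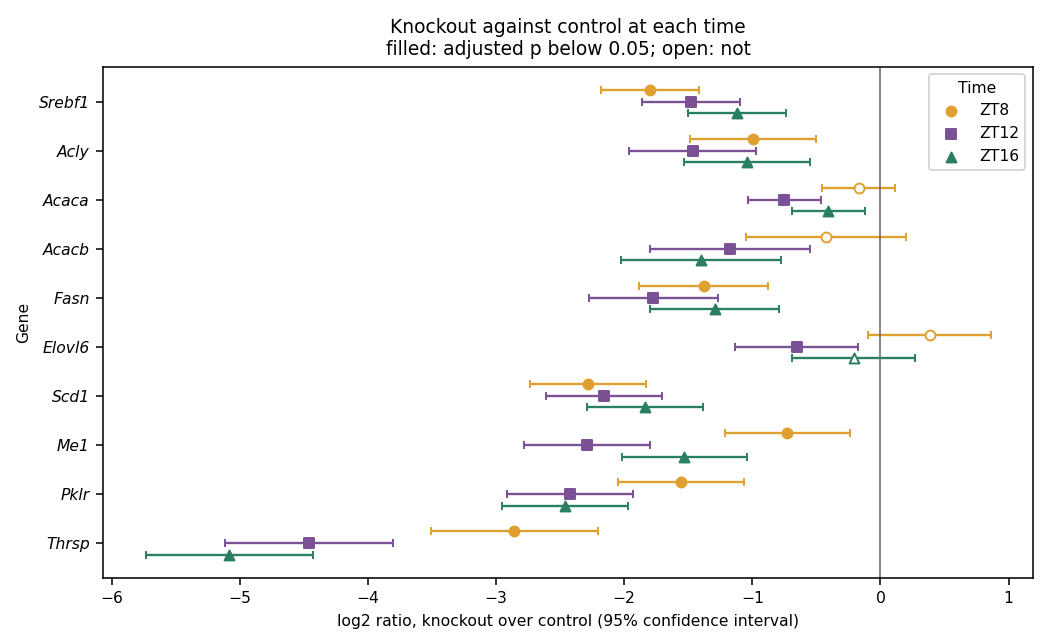
Knockout over control ratio of the 10 genes at ZT8, ZT12 and ZT16 on the log2 scale (limma estimate, bars are the 95% confidence interval, filled points have an adjusted p under 0.05). Thrsp reaches the lowest ratio at each time, from -2.86 at ZT8 to -5.08 at ZT16, and Elovl6 at ZT8 is the one ratio above 0.

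The start of each of these genes was looked up in the RefSeq promoter table (GRCm38.p6), which matched 9 of the 10 genes, all but Scd1, with 13 start sites. Of each, 250 bases before the start were searched on both strands for letters of factors known at lipogenic promoters: CCAAT, the box that NF-Y binds; GGGCGG, the GC box of Sp1; CACGTG and the wider CANNTG, which contains it and is the E-box of helix-loop-helix factors such as USF; and TCACNCCAC, a form of the sterol regulatory element. CCAAT was present at 7 of the 13 starts, in 6 of the 9 genes, beside 33.8% of all 32851 promoters of that length. GGGCGG was present at 4 starts of 3 genes, beside 32.7%, and CANNTG at 7 starts of 6 genes, beside 66.2%. CACGTG and TCACNCCAC were at none of the 13, beside 6.02% and 1.05% of all promoters, which says only that these letters are not in these windows. The Acaca window may lie inside a longer transcript. Probe A_52_P132591 of Acaca is listed from chr11:83987047 (mm9), well upstream of A_55_P2121392 at chr11:84009021, which reads from base 81 of its RefSeq transcript. The windows of Thrsp, Fasn and Acly, the gene with the deepest fall and 2 steps of the path, and 1 of the 3 windows of Srebf1 are shown for their CCAAT and GC box letters, which are in capitals. All 4 lie on the minus strand and are written in the direction of the gene, ending at the base before the start.
Thrsp, chr7:97417551-97417800: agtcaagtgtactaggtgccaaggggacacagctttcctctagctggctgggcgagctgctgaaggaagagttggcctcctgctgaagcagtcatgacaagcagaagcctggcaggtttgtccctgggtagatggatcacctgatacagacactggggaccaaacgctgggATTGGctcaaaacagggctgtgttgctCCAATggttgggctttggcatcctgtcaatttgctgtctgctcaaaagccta
Fasn, chr11:120824548-120824797: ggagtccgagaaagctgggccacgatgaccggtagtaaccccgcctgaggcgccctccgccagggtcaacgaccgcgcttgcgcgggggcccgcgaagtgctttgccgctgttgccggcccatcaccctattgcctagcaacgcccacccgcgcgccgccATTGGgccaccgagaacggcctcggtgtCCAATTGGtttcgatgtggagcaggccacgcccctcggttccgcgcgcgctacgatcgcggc
Acly, chr11:100528001-100528250: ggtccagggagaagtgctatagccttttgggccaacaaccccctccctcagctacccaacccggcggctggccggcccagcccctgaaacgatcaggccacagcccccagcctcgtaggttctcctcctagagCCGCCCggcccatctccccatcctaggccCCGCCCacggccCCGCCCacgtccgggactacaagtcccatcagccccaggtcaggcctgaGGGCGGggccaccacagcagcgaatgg
Srebf1, chr11:60220628-60220877: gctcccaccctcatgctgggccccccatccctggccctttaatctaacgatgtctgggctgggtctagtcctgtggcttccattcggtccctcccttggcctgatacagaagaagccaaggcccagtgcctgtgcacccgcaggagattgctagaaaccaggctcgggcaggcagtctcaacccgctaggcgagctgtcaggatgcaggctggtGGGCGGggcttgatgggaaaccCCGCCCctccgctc
Thrsp carried 2 CCAAT matches, in opposite directions, whose first bases lie 79 and 52 bases before the start. Fasn carried 3, of which the 2 nearest the start overlap in CCAATTGG, and the CAATTG within them is also a CANNTG match. Acly had 4 GC box matches, 3 of them on the opposite strand, and no CCAAT match. The Srebf1 window shown had GC box matches and no CCAAT match. Both Srebf1 windows not shown had a CCAAT match. Its first base lay 30 bases before the start at chr11:60210471 and 166 bases before the start at chr11:60222581. Which Srebf1 start is used in liver was not determined here.

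Srebf1, the regulator, fell at every time and its groups never overlapped. In controls its lowest, median and highest levels were 6.32, 6.61 and 7.33 at ZT8, 6.60, 6.91 and 7.21 at ZT12, and 6.31, 6.72 and 6.90 at ZT16. In knockouts they were 4.53, 4.95 and 5.57 at ZT8, 4.62, 5.54 and 5.74 at ZT12, and 5.33, 5.58 and 5.72 at ZT16. Every control array was thus above 6 and every knockout array below it. The ratio was -1.80 (SE 0.19, 28.7% of control, adjusted p 7.1e-09) at ZT8, -1.48 (35.9%, adjusted p 2.0e-07) at ZT12 and -1.12 (46.0%, adjusted p 1.8e-05) at ZT16. Within the 3 wash batches the ratio ranged from -2.21 to -1.59, from -1.57 to -1.16 and from -1.30 to -0.92. A group held 1 to 3 arrays in a batch. The only Srebf1 probe, at chr11:60013214-60013273 (mm9), does not tell the transcripts of the gene apart.

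Thrsp, which encodes the lipogenic nuclear protein Spot 14, a regulator of fatty acid synthesis that responds to thyroid hormone and carbohydrate, had the deepest fall of the 10 genes. In controls its lowest, median and highest levels were 5.75, 6.87 and 7.09 at ZT8, 7.36, 8.20 and 8.66 at ZT12, and 7.70, 8.21 and 8.52 at ZT16. In knockouts they were 3.07, 3.59 and 5.25, then 2.20, 3.44 and 4.97, then 2.51, 3.09 and 3.40. The highest knockout array stayed below the lowest control array at each time, and the gap was narrowest at ZT8. The ratio was -2.86 (SE 0.32, 7.26-fold lower, adjusted p 3.0e-08) at ZT8, -4.46 (22.0-fold lower, adjusted p 3.3e-12) at ZT12 and -5.08 (33.9-fold lower, adjusted p 2.0e-13) at ZT16. It ranked 59 from the lowest of the 23054 ratios at ZT8, 15 at ZT12, then 13 at ZT16. The gene has a second probe, A_51_P194099 at chr7:104565562-104565621 (mm9), whose 60 bases are shown because it reads another stretch of the transcript.
Thrsp A_51_P194099: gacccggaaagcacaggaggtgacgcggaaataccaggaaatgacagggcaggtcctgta
Its ratios were -3.09, -4.80 and -5.45 (adjusted p over all probes 2.8e-08, 3.4e-12 and 1.8e-13).

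Pklr, pyruvate kinase of liver and red cells, makes the pyruvate that feeds the pathway and is a known target of ChREBP. Its lowest, median and highest control levels were 0.28, 0.49 and 1.20 at ZT8, 0.34, 0.96 and 1.23 at ZT12, and 0.02, 0.80 and 1.16 at ZT16. In knockouts they were -1.93, -0.69 and -0.30, then -2.28, -1.56 and -1.25, then -2.76, -1.65 and -1.43. All control arrays lay above 0 and all knockout arrays below it. The ratio was -1.56 (SE 0.24, 33.9% of control, adjusted p 6.9e-06) at ZT8, -2.42 (18.6%, adjusted p 2.7e-09) at ZT12 and -2.46 (18.1%, adjusted p 1.8e-09) at ZT16. Mlxipl, which encodes ChREBP, had ratios of 0.08, -0.17 and -0.14 and was not called (adjusted p 0.741, 0.395 and 0.505). The only Pklr probe is shown because its listed position, chr3:88948907-88949425 (mm9), spans 519 bases of genome for 60 bases of probe.
Pklr A_51_P176042: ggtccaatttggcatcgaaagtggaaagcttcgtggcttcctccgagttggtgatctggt

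Acly, ATP citrate lyase, was lower at each time, with knockout and control arrays apart at ZT12 only. Control levels were 5.43, 6.03 and 6.79 (lowest, median, highest) at ZT8, 5.74, 6.60 and 7.50 at ZT12, and 5.56, 6.15 and 6.69 at ZT16. Knockout levels were 4.75, 5.04 and 5.67, then 4.67, 5.0 and 5.64, then 4.78, 4.85 and 6.08. At ZT16 knockout replicate 6 stood at 6.08 while the other 5 lay between 4.78 and 5.12, below all controls. The ratio was -0.995 (SE 0.24, 50.2% of control, adjusted p 0.0017) at ZT8, -1.47 (36.2%, adjusted p 1.3e-05) at ZT12 and -1.04 (48.6%, adjusted p 0.00093) at ZT16. An exact two-sided permutation test gave 0.00649 at ZT8 and 0.00866 at ZT16, where the smallest that 6 against 6 arrays can give is 0.00216. The second, dimmer probe of Acly is shown because it was called at 2 of the 3 times.
Acly A_55_P2082914: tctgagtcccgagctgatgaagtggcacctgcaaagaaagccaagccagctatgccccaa
Its ratios were -0.70 (adjusted p over all probes 0.0601), -1.28 (0.000727) and -0.73 (0.0462).

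Me1, cytosolic malic enzyme, returns malate to pyruvate and yields NADPH. Its control levels were 4.64, 5.20 and 5.67 at ZT8, 5.07, 5.31 and 6.15 at ZT12, and 4.31, 4.69 and 5.31 at ZT16. In knockouts they were 3.46, 4.58 and 5.19 at ZT8, 2.09, 3.28 and 3.65 at ZT12, and 2.50, 3.17 and 3.52 at ZT16. The groups overlapped at ZT8 and were well apart at both later times. The ratio was -0.73 (SE 0.24, 60.5% of control, adjusted p 0.0184) at ZT8, -2.29 (20.5%, adjusted p 6.8e-09) at ZT12 and -1.53 (34.6%, adjusted p 7.2e-06) at ZT16. Without knockout ZT8 replicate 3, the ZT8 ratio was -0.56 and no longer called (adjusted p 0.0678; range over all alternatives 0.00164 to 0.0717).

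Neither of the 2 acetyl-CoA carboxylases was called at ZT8. Their ratios were not tested against those of the genes above. Acaca, the cytosolic form that supplies malonyl-CoA for synthesis, had control levels of 4.44, 4.75 and 5.29 at ZT8, 4.40, 4.76 and 5.48 at ZT12, and 4.34, 4.51 and 4.71 at ZT16. Its knockout levels were 4.07, 4.75 and 5.02, then 3.68, 4.08 and 4.18, then 3.63, 4.11 and 4.19. The groups shared their median at ZT8 and did not overlap at ZT12 or ZT16. The ratio at ZT8 was -0.17, or 89.0% of control with a 95% confidence interval of 73.1% to 108% (adjusted p 0.372). It was -0.75 (59.4%, adjusted p 6.6e-05) at ZT12 and -0.41 (75.5%, adjusted p 0.0204) at ZT16. The ZT16 call was lost without control ZT16 replicate 6 (-0.32, adjusted p 0.0781) and without knockout ZT16 replicate 6 (-0.36, adjusted p 0.0507), with a range of 0.0097 to 0.101 over all alternatives.

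Acacb, the mitochondrial form whose malonyl-CoA restrains fatty acid oxidation, spread more widely between arrays. Its control levels were 3.42, 3.94 and 4.82 at ZT8, 3.17, 4.76 and 5.75 at ZT12, and 4.07, 4.33 and 5.44 at ZT16. Its knockout levels were 2.57, 3.67 and 4.40, then 2.33, 3.45 and 3.80, then 2.77, 3.13 and 3.33. Only at ZT16 did all knockout arrays lie below all controls. The ratio was -0.43 at ZT8, or 74.5% of control with an interval of 48.3% to 115% (adjusted p 0.296), -1.17 (44.3%, adjusted p 0.00264) at ZT12 and -1.40 (38.0%, adjusted p 0.000518) at ZT16.

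Fasn, fatty acid synthase, was called lower at all 3 times. Its control levels were 6.96, 7.92 and 8.33 at ZT8, 7.34, 8.30 and 9.11 at ZT12, and 7.36, 7.98 and 8.26 at ZT16. Its knockout levels were 5.99, 6.26 and 7.22 at ZT8, 5.76, 6.42 and 6.92 at ZT12, and 6.32, 6.50 and 6.83 at ZT16. At ZT8 the highest knockout array lay above the lowest control array; at ZT12 and ZT16 the groups were apart. The ratio was -1.38 (SE 0.25, 38.4% of control, adjusted p 5.3e-05), -1.77 (29.3%, adjusted p 9.7e-07) and -1.29 (40.8%, adjusted p 0.000104) at ZT8, ZT12 and ZT16.

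Scd1, the main stearoyl-CoA desaturase of liver, was apart between genotypes at every time. Its control levels were 7.38, 7.82 and 8.35 at ZT8, 7.49, 7.89 and 8.67 at ZT12, and 7.06, 8.06 and 8.27 at ZT16. Its knockout levels were 4.39, 5.77 and 5.96 at ZT8, 5.27, 5.93 and 6.02 at ZT12, and 5.61, 5.95 and 6.31 at ZT16. Every knockout array was below every control array of any time. The ratio was -2.28 (SE 0.22, 20.6% of control, adjusted p 2.0e-09), -2.16 (22.4%, adjusted p 4.6e-09) and -1.84 (28.0%, adjusted p 8.7e-08).

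Elovl6, which elongates palmitate to stearate, was called lower at ZT12 only, and its groups overlapped at every time. Its control levels were 3.74, 4.20 and 4.62 at ZT8, 4.27, 5.08 and 5.90 at ZT12, and 4.05, 4.16 and 4.93 at ZT16. Its knockout levels were 3.55, 4.78 and 5.03 at ZT8, 3.87, 4.34 and 4.51 at ZT12, and 3.59, 4.08 and 4.41 at ZT16. The knockout median was above the control median at ZT8 and below it at ZT12. The ratio was 0.38 at ZT8, or 130% of control with an interval of 93.5% to 182% (adjusted p 0.213), -0.65 at ZT12 (63.6%, adjusted p 0.0253) and then -0.21 at ZT16 (86.4%, interval 61.99% to 120%, adjusted p 0.504). Without knockout ZT8 replicate 3, which had the lowest Elovl6 level of its group, the ZT8 ratio was 0.60 and was called higher (adjusted p 0.0335; range over all alternatives 0.0335 to 0.429). The ZT12 call was lost without control ZT12 replicate 2 (adjusted p 0.0784), without control ZT12 replicate 4 (0.064) and without knockout ZT12 replicate 6 (0.102), with a range of 0.00946 to 0.102.

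**Figure D2:**
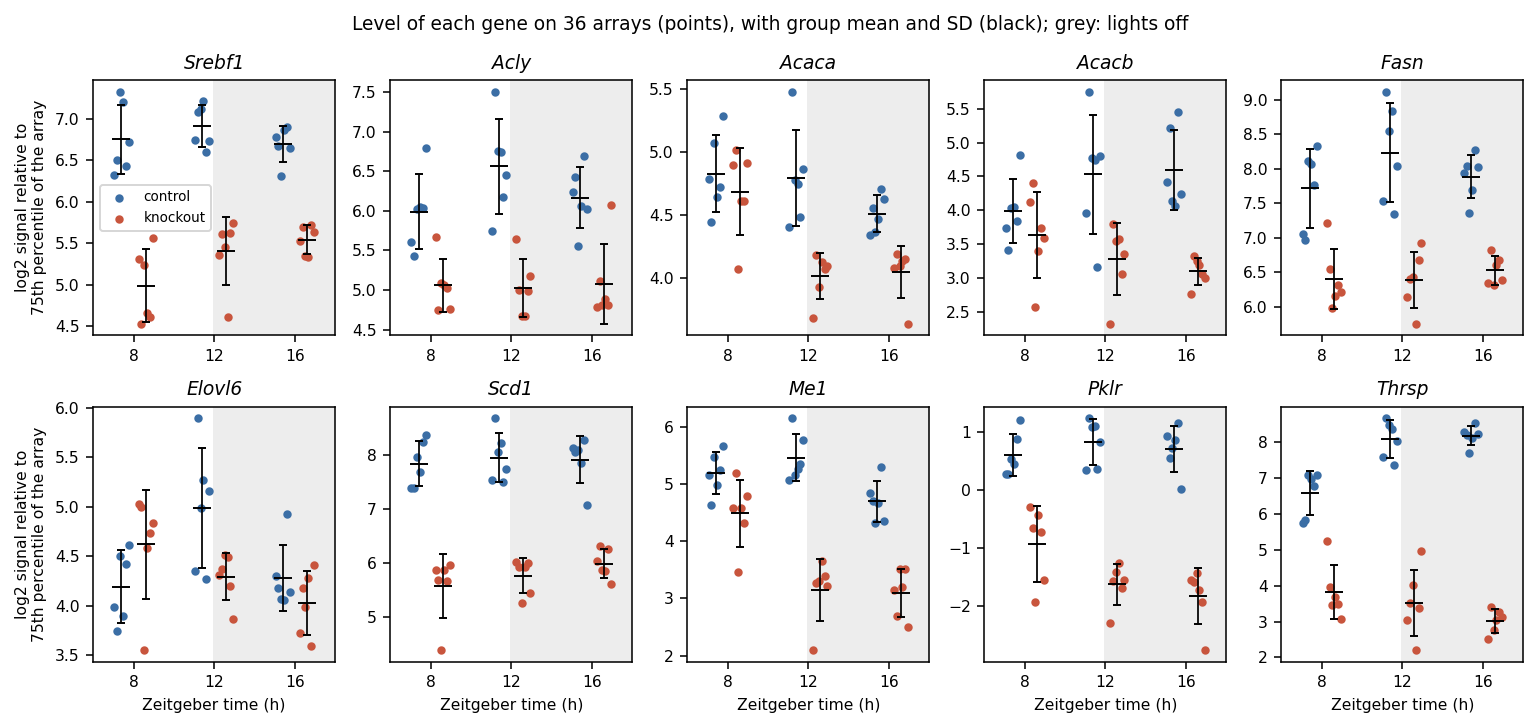
Level of each of the 10 genes on all 36 arrays by Zeitgeber time in hours (log2 intensity minus the 75th percentile of the array; blue control, red knockout; points are arrays, lines and bars the mean and SD of 6; grey marks lights off). The genotypes are fully apart at all 3 times for Srebf1, Thrsp, Pklr and Scd1, and overlap at all 3 times for Elovl6.

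Within each of the 3 wash batches, each of which held all 6 groups, the knockout over control ratio was below 0 at each time for 9 of the 10 genes. Elovl6 was the other: its within-batch ratios ran from 0.19 to 0.56 at ZT8 and from -0.53 to 0.06 at ZT16. In every batch some group held only 1 array, so some of these ratios rest on a single array of a genotype. The share of all genes with the same sign in every batch was not counted.

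Genes with more than 1 probe gave a check that rests mostly on other stretches of the transcript, though on the same RNA. Of the 21 probes kept, 11 were called lower at ZT8, 20 at ZT12 and 18 at ZT16, against 17.5%, 20.8% and 19.1% of all 34678 probes, and none was called higher. The ratio was below 0 for 20, 21 and 21 of them. These 21 include the brightest probe of each gene, whose values are given above, so these counts are not a separate check. Srebf1, Fasn, Pklr and Elovl6 have no other probe. For Acaca, whose brightest probe lies at chr11:84215093-84215152 (mm9), 1 of 6 probes was called at ZT8, 6 at ZT12 and 5 at ZT16. One of the 6, A_55_P2084703, was well above background on 1 of 6 knockout arrays at ZT12 and on 3 of 6 at ZT16, so its ratios rest on signal near background. The other 5 had ratios of -0.45 to -0.10, -1.08 to -0.70 and -0.75 to -0.38. For Acacb 0, 2 and 2 of 3 probes were called, and the brightest, at chr5:114700702-114700761 (mm9), gave larger ratios than the other 2, which read -0.07 and -0.14 at ZT8, -0.35 and -0.35 at ZT12, and -0.66 and -0.30 at ZT16. For Me1 the second probe was called at each time (-0.97, -1.83 and -1.47). For Scd1 the second probe, A_55_P2743499, gave -2.47, -2.44 and -1.99, and its coordinates are listed in the opposite order to those of the first; whether it reads the other strand was not determined.

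**Figure D3:**
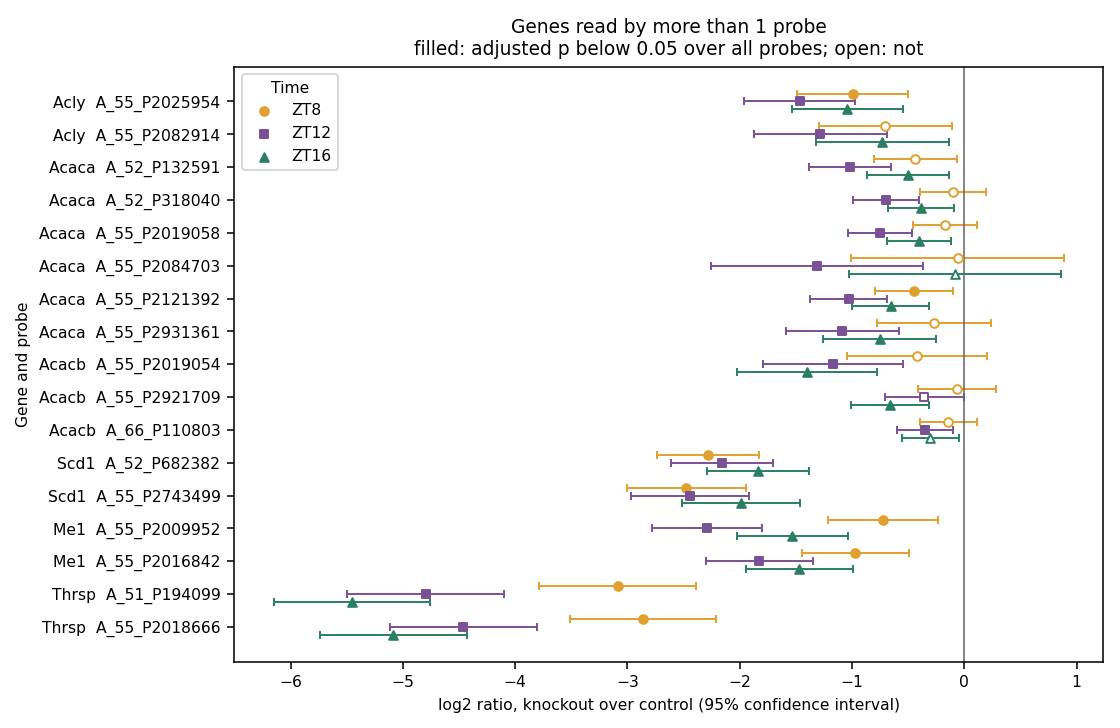
Knockout over control ratio (log2) of every kept probe of the 6 genes with more than 1 probe, at ZT8, ZT12 and ZT16 (bars are the 95% confidence interval, filled points have an adjusted p under 0.05 over all probes). The 2 Thrsp probes run close together, from -3.09 and -2.86 at ZT8 to -5.45 and -5.08 at ZT16, while the Acacb probes spread at ZT16 from -1.40 to -0.30.

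Between late light and lights off, Thrsp and Elovl6 rose in control livers and the other 8 genes were not called. From ZT8 to ZT12, Thrsp rose by 1.50 (SE 0.32, adjusted p 0.00125) with no overlap between these controls, as for 4.92% of all genes, and Elovl6 rose by 0.80 (adjusted p 0.0179), 2 of 10 genes where 7.70% of all genes were called higher. From ZT12 to ZT16 only Me1 was called (-0.84, adjusted p 0.0454), 1 of 10 where 1.95% of all genes were called lower. From ZT8 to ZT16, Thrsp was higher by 1.52 (adjusted p 0.000502), where 13.4% of all genes were called higher, and Acaca lower (-0.37, adjusted p 0.0475), where 13.2% were called lower. Srebf1 was not called between any 2 times in controls, with differences of 0.16, -0.25 and -0.09 (adjusted p 0.64, 0.577 and 0.787). The calls for Elovl6, Me1 and Acaca did not hold under every array left out: that for Elovl6 was lost without control ZT8 replicate 2 (adjusted p 0.0525), control ZT8 replicate 4 (0.0538) or control ZT12 replicate 2 (0.0649). That for Me1 was lost in 21 of 36 fits with 1 array left out and that for Acaca in 24, with adjusted p of 0.0198 to 0.176 and 0.0153 to 0.144 over all alternatives. The second Me1 probe had a ratio of -0.39 between ZT12 and ZT16 and was not called (adjusted p over all probes 0.463).

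In knockout livers Thrsp was not called between any times, with differences of -0.10, -0.60 and -0.70 (adjusted p 0.89, 0.256 and 0.103). From ZT8 to ZT12, Me1 fell by 1.30 (adjusted p 0.000481) and Acaca fell by 0.62 (adjusted p 0.00333), 2 of 10 where 6.50% of all genes were called lower. From ZT12 to ZT16 none of the 10 was called by limma, where 12.6% of all genes were called either way. From ZT8 to ZT16, Me1 (-1.37, adjusted p 4.7e-05), Acaca (-0.61, adjusted p 0.00108) and Pklr (-0.87, adjusted p 0.00598) were called lower, where 13.4% of all genes were. Srebf1 was called higher (0.59, adjusted p 0.0161), where 15.5% were. Groups overlapped for each gene between any 2 times in knockouts, where 4.35%, 5.33% and 9.89% of all genes did not overlap. Without knockout ZT8 replicate 2 or replicate 5 the Srebf1 rise was 0.51 and 0.52 and not called (adjusted p 0.0525 and 0.0534; range over all alternatives 0.00679 to 0.061). Without knockout ZT8 replicate 3 the ZT8 to ZT12 calls went from 2 to 4, with Srebf1 (0.57, adjusted p 0.0449) and Pklr (-0.81, adjusted p 0.019) added.

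Whether the genotype ratio itself changed between times was tested as an interaction. The moderated F test over the 3 times called 2 of the 10 genes, Thrsp (adjusted p 0.00405) and Me1 (adjusted p 0.00964), where 8.46% of all genes were called; for the other 8 the adjusted p was 0.113 to 0.654. Over all alternatives the adjusted p ran from 0.000706 to 0.0106 for Thrsp and from 0.00178 to 0.0559 for Me1, the last with the mean of its probes. The Thrsp ratio was lower at ZT16 than at ZT8 by a difference of -2.22 (SE 0.45, adjusted p 0.00145), 1 of 10 genes where 4.32% of all genes had a lower ratio at ZT16. That difference ranged from -2.41 to -2.01 over all alternatives and was called under each of them, and the second Thrsp probe gave -2.37 (adjusted p over all probes 0.0016). The Me1 ratio was lower at ZT12 than at ZT8 by a difference of -1.56 (SE 0.34, adjusted p 0.0177), 1 of 10 where 0.685% of all genes were called so. The second Me1 probe gave -0.86 and was not called (adjusted p over all probes 0.255), and with the mean of both probes the difference was -1.21 (adjusted p 0.0756; range over all alternatives 0.00278 to 0.0756). Between ZT12 and ZT16 no ratio of the 10 genes was called by limma, where 1.95% of all genes were called either way. For Srebf1 the ratio at ZT16 stood 0.68 above that at ZT8, which was not called (adjusted p 0.106). Without knockout ZT8 replicate 3 the F test called 5 genes, with Elovl6 (adjusted p 0.0152), Pklr (0.0386) and Acaca (0.0446) added; the ZT12 against ZT8 difference was then called for 4 genes and the ZT16 against ZT8 difference for 3.

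Arrays of a group moved up or down together over many of the 10 genes. Control ZT16 replicate 5 was the highest of its group for all 10 genes (mean deviation 0.46 from the group means), and control ZT12 replicate 2 was highest for 9 (0.72). Control ZT12 replicates 1 and 5 were below the group mean for all 10 (-0.51 and -0.57), as were control ZT8 replicates 1 and 2 (-0.36 and -0.50). Among ZT8 knockouts, replicate 1 was above the mean for all 10 genes (0.53), while replicate 3 averaged -0.65 but lay above the mean for Srebf1, at 5.24 against 4.99. After group means were subtracted, Pearson's r over the 36 arrays was above 0 for 43 of the 45 pairs of genes, with a median of 0.533 and a range of -0.127 to 0.857; these arrays share their slides, wash batches and scaling. Pairs of other genes were not computed, and the wash batch term was not subtracted. Over all genes well above background on every array, the median r with Srebf1 after group means was 0.014. Leaving out replicate 3 of the ZT8 knockouts, the median over the 45 pairs was 0.474 and the range -0.0686 to 0.855. With Srebf1 alone, r after group means was 0.591 for Fasn, 0.565 for Thrsp and 0.390 for Acly, and between -0.127 and 0.150 for the other 6 genes; without that array these 3 were 0.634, 0.593 and 0.393, and the other 6 lay between -0.0686 and 0.245, with Acaca at 0.245, Scd1 at 0.226, Acacb at 0.205 and Elovl6 at 0.174.

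**Figure D4:**
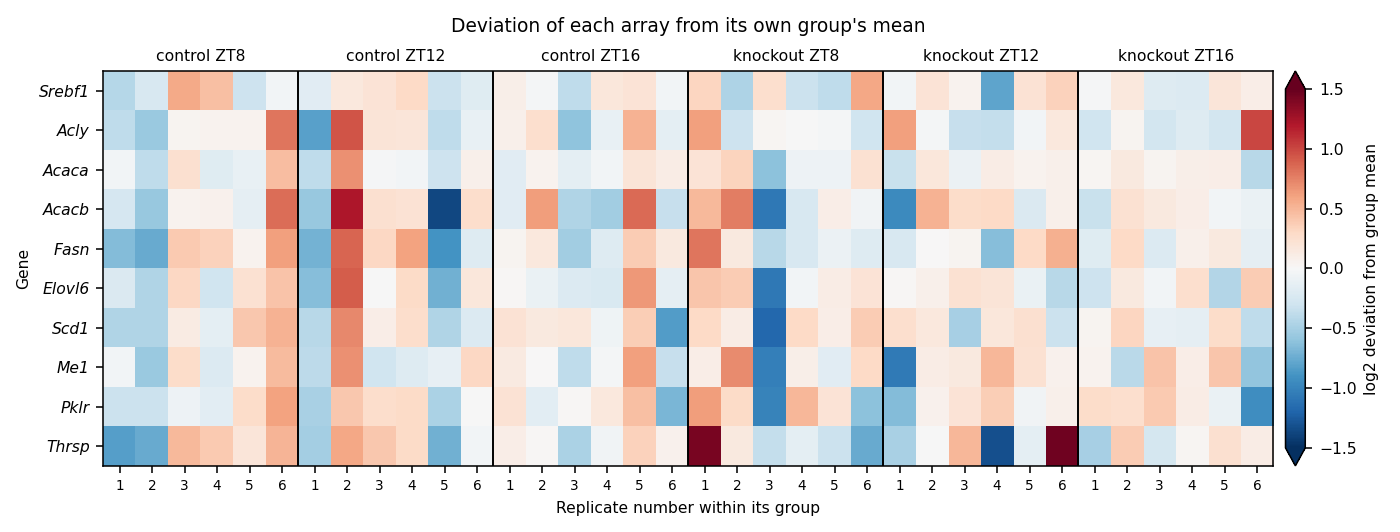
Deviation of each of the 36 arrays (columns, by group and replicate) from its group mean for each of the 10 genes (colour, log2 units, on a scale that ends at 1.5 in each direction). Whole columns of 1 colour are arrays that moved together, such as control ZT16 replicate 5, highest in all 10 genes, and control ZT12 replicate 5, below the mean in all 10.

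Outside the 10 genes, the 5 whose level followed Srebf1 most closely over the 36 arrays, among 17889 genes well above background on all of them, were Mblac2 (Pearson's r 0.950), Mid1ip1 (0.948), Cdkl2 (0.938), Gna14 (0.937) and Xpnpep1 (0.934). These values contain the genotype difference itself. After group means were subtracted, the closest were Mid1ip1 (0.789), Mblac2 (0.765), Shroom3 (0.709), Sptlc2 (0.691) and Rhobtb1 (0.676), so Mid1ip1 and Mblac2 led both orders. For the mean z-score of the 10 genes the named leaders were Gpam (0.964), Dgcr6 (0.950), Hcn3 (0.937) and Idh1 (0.933), and after group means Gpam (0.867), Ebpl (0.833) and Acss2 (0.804); the other places went to probes with no current gene name. Gpam stood first in both.

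Genes that work beside the 10 were read from 4 lists. The list of carbon and NADPH supply, from glucose to cytosolic acetyl-CoA and the pentose phosphate path, held 18 genes, of which 8, 11 and 12 were called lower at ZT8, ZT12 and ZT16 and 1, 0 and 0 higher, beside 18.7%, 22.6% and 20.00% of all genes called lower and 16.7%, 19.6% and 19.9% called higher. Its median ratios were -0.22, -0.49 and -0.33. Slc25a1, the carrier that brings citrate out of the mitochondria, had ratios of -0.91, -0.90 and -0.77, all called. Idh1, which yields cytosolic NADPH, had ratios of -0.66, -0.98 and -0.80, Taldo1, transaldolase, had -0.56, -0.67 and -0.68, and Acss2, which makes acetyl-CoA from acetate, had -2.14, -1.88 and -2.07, all called.

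Among 19 other lipogenic targets, 10, 10 and 9 were called lower, beside the same 18.7%, 22.6% and 20.00% of all genes, and 1, 1 and 4 higher, beside 16.7%, 19.6% and 19.9%. The median ratios were -0.17, -0.16 and -0.33. Gpam, the mitochondrial acyltransferase that starts glycerolipid synthesis, had ratios of -0.91 (adjusted p 0.00124), -1.97 (1.3e-08) and -1.40 (4.7e-06). Acsl5, an acyl-CoA synthetase, had -0.80, -0.71 and -1.11, and Tmem97 had -0.28, -0.80 and -0.93, all called. Elovl5, which elongates polyunsaturated fatty acids, was called lower at ZT8 (-0.64, adjusted p 0.0107) and higher at ZT16 (0.76, adjusted p 0.00271). Txnip, a target of ChREBP, was called higher at ZT8 (1.62, adjusted p 4.5e-05) and not at ZT12 (0.61, adjusted p 0.084) or ZT16 (0.56, adjusted p 0.118), while Pklr was lower at all 3 times. Fabp5, a fatty acid binding protein, had ratios of 0.01, 0.64 and 1.75, the last with an adjusted p of 3.5e-05. Elovl5, Txnip and Fabp5 were picked after their values were seen.

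Of 17 transcription factors and cofactors that act on lipogenic promoters, 5, 6 and 4 were called lower and 1, 3 and 3 higher, beside 18.7%, 22.6% and 20.00% of all genes called lower and 16.7%, 19.6% and 19.9% called higher, with medians of -0.06, -0.11 and -0.13. Nfyb, a subunit of the CCAAT-binding NF-Y, was lower at ZT8 (-0.69, adjusted p 2.0e-07) and ZT12 (-0.48, adjusted p 4.1e-05) and not called at ZT16 (-0.13, adjusted p 0.247). Mlx, the partner of ChREBP, was lower at each time (-0.76, -0.73 and -0.67), as was Bhlhe40, a clock-linked repressor (-0.60, -0.75 and -0.997). A list of 13 genes covered the retention, cleavage, turnover or regulation of SREBP proteins. Of these, 4, 3 and 6 were called lower and 2, 3 and 2 higher, beside those same shares of all genes, with medians of -0.10, 0.03 and -0.16. Insig1, which retains the SREBP precursor in the endoplasmic reticulum and is itself an SREBP target, was lower (-1.31, -1.41 and -1.32; adjusted p 3.8e-05, 9.9e-06 and 2.7e-05). Scap, the escort of the precursor, was not called at ZT8 (0.02, adjusted p 0.89) and was called higher at ZT12 (0.32, adjusted p 0.0082) and ZT16 (0.52, adjusted p 8.0e-05). Creb3l3, a liver transcription factor of the endoplasmic reticulum, was lower at each time (-0.43, -0.97 and -0.89).

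**Figure D5:**
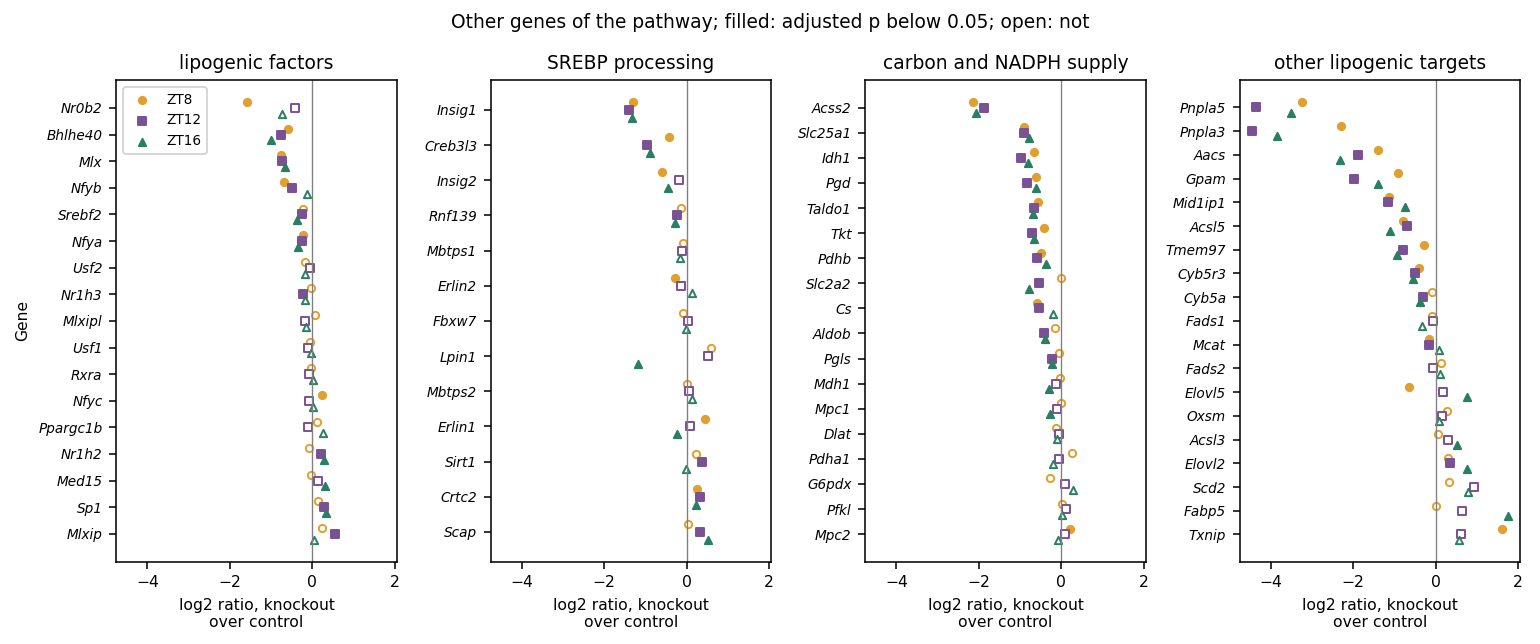
Knockout over control ratio (log2) at ZT8, ZT12 and ZT16 of each gene in the 4 lists (filled points have an adjusted p under 0.05). The list of carbon and NADPH supply has median ratios of -0.22, -0.49 and -0.33, and Pnpla3 and Pnpla5 among the other lipogenic targets reach -4.45 and -4.35 at ZT12.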

How the data were processed

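Per the labels, liver RNA was labelled with Cy3 and hybridised to 1-colour Agilent mouse arrays. The deposited scanner files give spot intensity, extracted with Agilent Feature Extraction 10.10.1.1 per the submitters' processing notes, background subtracted but not normalized between arrays, per the file headers. The authors' own table holds log2 values of 32801 probes; its 36 columns hold the same sorted values, so it is quantile normalized, and it served as an alternative. Spot flags deposited by the authors (other values, 0 or 1) marked outlier spots, which were left out, and spots well above background.

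The log2 processed signal was scaled by subtracting the 75th percentile of an array's non-control spots. Probes well above background on at least 6 of 36 arrays were kept (34771, of which 93 with a missing value were dropped), and each gene was read from its probe with the highest mean. Arrays give no counts, so their number limits the precision. The fit was limma 3.58.1 in R 4.3.3, with 6 group means and wash batch as a fixed term, Benjamini-Hochberg adjustment over all genes (or all probes), and a threshold of 0.05; the script was tested on simulated data. Wash batches held 11, 12 and 13 arrays, each with all 6 groups.

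The members and lists were chosen with earlier results of these data known. One gene of the list of carbon and NADPH supply is not reported here. Genes named beyond the members were Insr, the cell type markers, from each list the 3 genes of lowest p in any genotype comparison, the 5 closest to Srebf1 or to the members' mean, and Mlxipl, Acss2, Elovl5, Txnip, Fabp5, Pnpla3, Pnpla5, Aacs and Lpin1, added after their values were seen. Gene names are those of the files, updated through RefSeq where accessions matched (43217 probes matched, 1534 names differed). Probe positions are on mm9 as the files list them, and promoters are on GRCm38.p6, so these coordinates are not comparable. Alternatives changed the background correction, scaling, probe filter, probe rule, batch terms, array weights and samples fitted, and left out each array in turn.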

Additional observations from a re-analysis of the deposited data

Results flagged for a closer look

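In 10 of the 60 sets of 6 arrays (10 genes in 6 groups), 1 array stood apart from the other 5 by more than Dixon's 95% critical value; chance alone puts about 1 set in 20 past it. In knockout ZT8, replicate 3 was low for Scd1 (4.39, the others 5.67 to 5.96) and for Elovl6 (3.55, the others 4.59 to 5.03), and replicate 1 was high for Acly (5.67, the others 4.75 to 5.09). In knockout ZT12, replicate 4 was low for Srebf1 (4.62, the others 5.36 to 5.74) and replicate 1 for Me1 (2.09, the others 3.22 to 3.65). In knockout ZT16, replicate 6 was high for Acly (6.08, the others 4.78 to 5.12) and low for Acaca (3.63, the others 4.08 to 4.19) and Pklr (-2.76, the others -1.93 to -1.43). In control ZT16, replicate 6 was low for Scd1 (7.06, the others 7.84 to 8.27) and replicate 5 high for Elovl6 (4.93, the others 4.05 to 4.30).

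The genotype ratio differed between times by its own test for 2 genes. For Thrsp the moderated F test of limma gave an adjusted p of 0.00405, and the ratio at ZT16 was lower than at ZT8 by a difference of -2.22. For Me1 the F test gave an adjusted p of 0.00964, and the ratio at ZT12 was lower than at ZT8 by a difference of -1.56. The second Me1 probe was not called by the F test (adjusted p over all probes 0.246), so the Me1 result holds for the brighter probe only.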

How the results depend on the processing

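None of the results changed direction while called. Counts are calls by limma in either direction among the 10 genes. Calls of the genotype comparison stayed within 6 to 8 at ZT8, 9 to 10 at ZT12 and 8 to 9 at ZT16 over 12 settings. With 1 array left out they were 7 to 7, 9 to 10 and 8 to 9. The 8 calls at ZT8 include Elovl6 called higher. Without knockout ZT8 replicate 3 the 7 calls at ZT8 were 6 lower and Elovl6 higher, with Me1 lost. Array weights gave 5 F test calls, 3 for the difference of ratios between ZT12 and ZT8, 6 for that between ZT16 and ZT8, and 4 for knockout ZT12 against ZT8. The mean of a gene's probes gave 1 F test call and 0 for the difference between ZT12 and ZT8. With only the groups compared, knockout ZT12 against ZT8 had 0 calls (its smaller fit has fewer arrays), knockout ZT16 against ZT8 had 2 and control ZT12 against ZT8 had 1. Control ZT16 against ZT12 had 0 calls under the authors' table, no filter, the mean of probes, no wash batch, slide as a fixed block, array weights and the replicate block. Control ZT16 against ZT8 had 1 call under no filter, the mean of probes, no wash batch and the replicate block. With 1 array left out, calls were 2 to 5 for the F test, 1 to 4 and 1 to 3 for the differences of ratios ZT12 against ZT8 and ZT16 against ZT8, 0 to 0 for ZT16 against ZT12, 1 to 3 for control ZT12 and for control ZT16 against ZT8, 0 to 2 for control ZT16 against ZT12, 2 to 4 for knockout ZT12 against ZT8, 3 to 5 for knockout ZT16 against ZT8 and 0 to 0 for knockout ZT16 against ZT12. Where these counts moved, the cause was not tested. Replicate numbers were not treated as pairs in the main fit. Same-numbered arrays of 2 groups had median correlations of -0.03 to 0.03 of their deviations, with single values from -0.35 to 0.21. Such correlations cannot exclude a pairing of the samples.

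For single genes, the Acaca call at ZT16 was lost under quantile normalization (adjusted p 0.0738) and the authors' table (0.101), and the Elovl6 call at ZT12 under quantile normalization (0.0641), the authors' table (0.0563), slide as a fixed block (0.0537) and only the groups compared (0.0765). The Srebf1 ratios ran from -1.92 to -1.67, -1.54 to -1.33 and -1.18 to -1.02 over all alternatives and were called under each.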

Other observations

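Pnpla3, Pnpla5 and Aacs, outside the 10 genes, were also called lower at all 3 times. Pnpla3, a lipid droplet protein, had knockout over control ratios of -2.31, -4.45 and -3.86 at ZT8, ZT12 and ZT16. Pnpla5, of the same family, had ratios of -3.24, -4.35 and -3.50, and was well above background on 5 of 6 knockout arrays at ZT8. Aacs, which activates acetoacetate in the cytosol for lipid synthesis, had ratios of -1.39, -1.88 and -2.33. Lpin1, which encodes a phosphatidic acid phosphatase that also acts on SREBP in the nucleus, had ratios of 0.59, 0.52 and -1.19, the last with an adjusted p of 0.0143 by limma. These genes were picked after their values were seen.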
